A study of Bos taurus with 18 samples.

Results

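A set of 35 genes stood far above all other animals in the blood leukocytes of a single Droughtmaster animal. The genes were taken from the 27607 Ensembl identifiers of the deposited count table by their level in that library, which is called Droughtmaster replicate 3. A member had at least 100 CPM there and a value, after adding 0.5 CPM, at least 16 times that of each of the other 17 libraries. CPM is the count per 1000000 of the library size scaled by TMM, a method that sets libraries to a common level over most of their genes. Low-count features were set aside first, which left 13439 Ensembl identifiers and 1007 loci without an identifier, 14446 features in all. The members were therefore chosen by how high they were in that library, and those values are given as a description, without a test. Levels in the other 17 libraries entered the rule as an upper bound. They also entered as a lower bound through the low-count filter, which asked for counts in several libraries.

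The series compared 6 Red Angus (a Bos taurus beef breed), 6 Droughtmaster (a composite bred for the tropics from Bos indicus and Bos taurus cattle) and 6 F1 hybrids labelled as Red Angus x Droughtmaster. All 18 animals were female and were labelled as under heat stress, and unstressed animals were not analysed here. Blood from the tail vein was spun with EDTA, and the white layer was taken for RNA. That layer lies between the plasma and the red cells of a spun tube, and it holds the leukocytes with platelets. The labels do not give age, batch, collection date or parentage. They give each sample a separate name but do not state how the samples relate to animals, so p-values measure the spread between these samples. Replicate numbers are not in the labels and follow the listed order of the samples within each breed. In bulk RNA, fewer cells of a type and less RNA per cell cannot be told apart.

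Leukocytes are a mixture of granulocytes, monocytes and lymphocytes, and the transcript pool of such a preparation depends on which cells are present and on what each of them transcribes. The count table identifies genes by Ensembl number only. Of the 27607 identifiers, 0 matched the RefSeq table of names used here (assembly ARS-UCD2.0), the 35 members included. No member could be given a name, a chromosome position or a role, and no sequence is shown for that reason. Markers of leukocytes, red cells, platelets or other cells could likewise not be checked, and the members are described by their identifiers and by how they behaved. Whether a member has near-identical copies, or shares reads with an overlapping or antisense gene, was not tested.

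Libraries held between 11639027 and 24117615 counts, and Droughtmaster replicate 3 held 16854390. Its number of features with counts, 17084, lay inside the range of the other libraries (15507 to 19605). Its TMM factor of 0.424 was the lowest of the 18, and the factors of the others ran from 0.734 to 1.455. The scaled size of this library was 7125552, below its nominal total, so its CPM values can add up to more than 1000000. Among 9860 features outside the member set with a mean of at least 5 CPM in the other 17 libraries, its Spearman correlation with the median of the other libraries was 0.883 across genes. Red Angus replicates 2 and 4 (0.881 and 0.867) and Droughtmaster replicates 2 and 6 (0.871 and 0.854) were lower. By this rank measure over all these features, Droughtmaster replicate 3 was not the library farthest from the rest. By counts of extreme genes it was. At 100 CPM or more, 89 Ensembl genes, the 35 members among them, were at least 4 times every other library, against at most 9 in the others.

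The members took more than 1 in every 2 counts of Droughtmaster replicate 3. Together they held 9432948 counts, 55.97% of the library (exact 95% binomial interval 55.94% to 55.99%, which covers counting error only). The highest member, ENSBTAG00000037644, held 7512906 of these. The other 34 held 1920042 counts, or 20.55% of all counts outside the highest member. In the other 17 libraries these 34 genes held between 0.0367% (F1 replicate 1) and 0.0827% (Red Angus replicate 1) of the counts outside it. The counts were concentrated in a few genes. The 4 highest members held 97.11% of the members' counts, and ENSBTAG00000051412 alone held 61.78% of those of the other 34.

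ENSBTAG00000037644 measured 1054361 CPM in Droughtmaster replicate 3. In the other Droughtmaster libraries it measured 1584, 1305, 1184, 798.3 and 1686 CPM (replicates 1, 2, 4, 5 and 6). In Red Angus it ran from 121 (replicate 5) through a median of 575 to 2905 CPM (replicate 1). In the F1 it ran from 99.9 (replicate 1) through a median of 718.9 to 3261 CPM (replicate 3). This gene was therefore well expressed in every animal, with levels that overlapped between the 3 groups and spanned more than an order of magnitude within Red Angus and within the F1. The ratio of Droughtmaster replicate 3 to the next library was 323.2. CPM is not corrected for gene length, so the order of members by CPM is not an order of transcript abundance.

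ENSBTAG00000051412 was the second highest member, at 166475 CPM in Droughtmaster replicate 3. It measured 4.85, 12.6, 1.39, 4.08 and 21.2 CPM in the other Droughtmaster libraries. Red Angus ran from 1.17 through 9.65 to 133 CPM (lowest, median, highest), and the F1 from 1.19 through 25.001 to 141 CPM. It had the highest ratio to the next library of all members, 1179. Red Angus replicate 1 and F1 replicates 2 and 3 were each above 100 CPM, and F1 replicate 5 was next, at 42.8 CPM.

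ENSBTAG00000013178 measured 36371 CPM in Droughtmaster replicate 3, or 381.1 times the next library. The other Droughtmaster libraries measured 94.9, 18.7, 21.5, 2.02 and 24.9 CPM. Red Angus ran from 4.45 through 16.4 to 58.1 CPM and the F1 from 1.36 through 20.003 to 30.2 CPM. The groups overlapped, and Droughtmaster replicate 1 was the next highest library.

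ENSBTAG00000006342 measured 28384 CPM there and was, with ENSBTAG00000037644, the only member with a median above 100 CPM in the other 17 libraries. The other Droughtmaster libraries measured 152, 81.5, 76.3, 152 and 199 CPM. Red Angus ran from 69.4 through 184 to 479 CPM and the F1 from 104 through 116 to 370.5 CPM. Its ratio to the next library, 59.2, was lower than that of the 3 members above it.

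The next 5 members by level in Droughtmaster replicate 3 had low to middle levels in the other animals. ENSBTAG00000054844 measured 9748 CPM there and at most 27.6 CPM elsewhere (F1 replicate 3), with 0 counts in Droughtmaster replicate 1. ENSBTAG00000038757 measured 3771 CPM against at most 15.99 CPM (F1 replicate 2). ENSBTAG00000016588 measured 3031 CPM against at most 29.8 CPM (Red Angus replicate 4). Each of these had its next highest value in a Red Angus or F1 library. ENSBTAG00000017733 measured 2368 CPM against at most 14.7 CPM (Red Angus replicate 1), and ENSBTAG00000010508 measured 2306 CPM with 140 CPM in the next library (Droughtmaster replicate 2). The last of these lay near the edge of the rule.

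**Figure D1:**
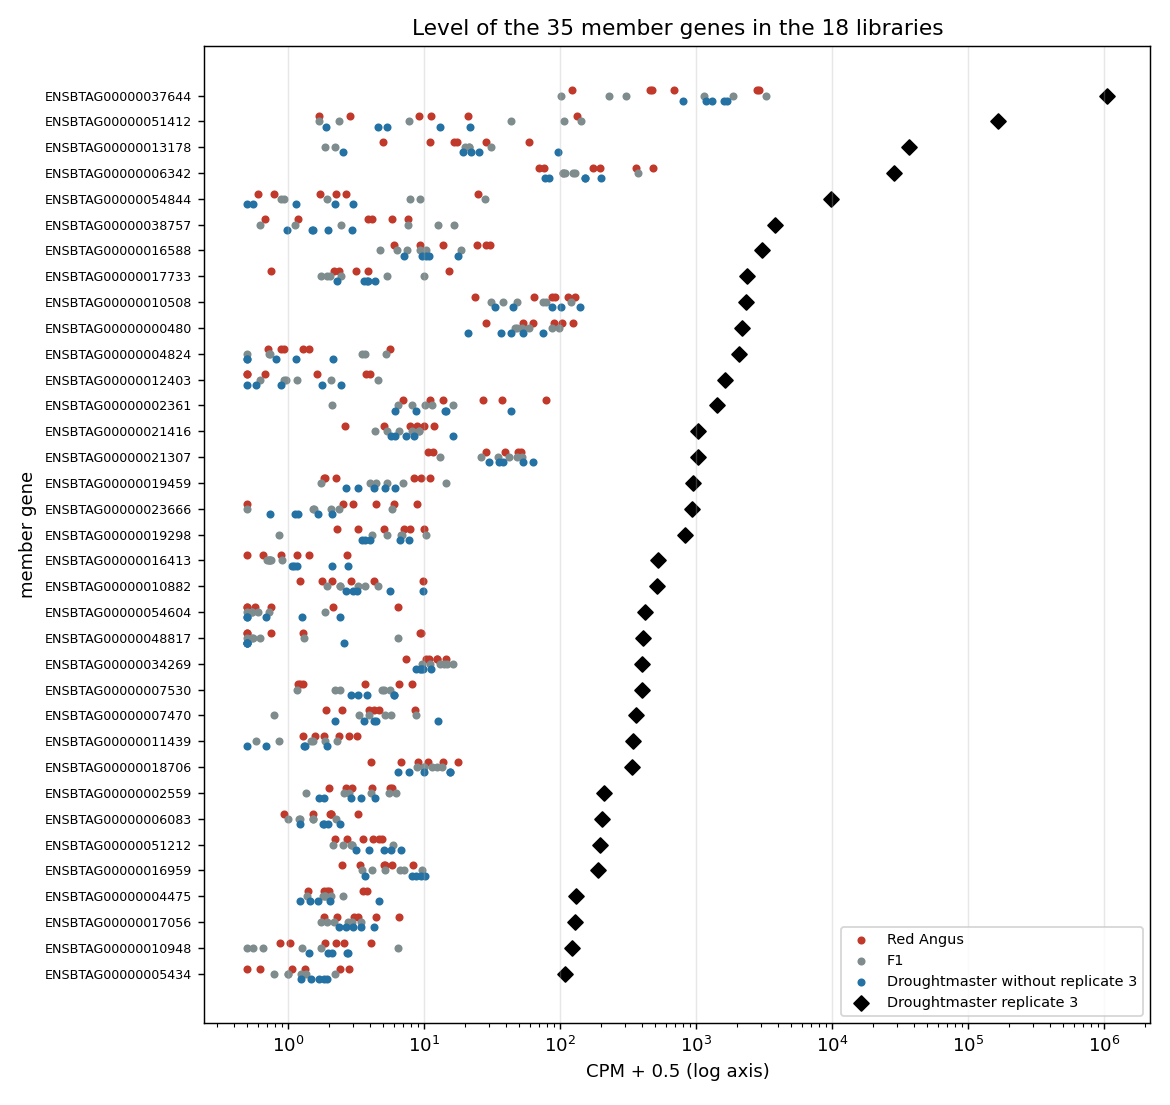
Level of each of the 35 members in the 18 libraries, as CPM + 0.5 on a log axis, ordered by level in Droughtmaster replicate 3 (black diamonds). Circles are the other libraries, coloured by breed; they overlap between breeds in each member except ENSBTAG00000016413 for F1 and Droughtmaster, and each diamond lies at least 16 times above the highest circle.

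Over the 35 members, the level in Droughtmaster replicate 3 ran from 107.6 to 1054361 CPM with a median of 831.5 CPM, and 15 members passed 1000 CPM. The ratio to the next library had a median of 59.2, and 11 members passed 100. Relative to the median of the other 17 libraries, the ratio ran from 27.1 to 18250 with a median of 155.8. In those 17 libraries the median level was under 1 CPM for 6 members, 1 to 10 CPM for 21, 10 to 100 CPM for 6 and above that for the 2 named above. All 17 libraries had counts for 25 members. The fewest libraries with counts, 10 of 17, belonged to ENSBTAG00000048817, and a count of 0 allowed up to 0.107 to 0.251 CPM, depending on the library. Most members were thus measured at low CPM in the other animals. That none was without counts in them follows from the low-count filter, which asked for counts in several libraries. Across the 35 genes, as a description since genes are not replicates, the log2 level in Droughtmaster replicate 3 correlated with the log2 median elsewhere at r = 0.638 (Spearman 0.449). The rule itself favours a positive value, since a gene high elsewhere could enter only if it was higher still in that library.

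The members nearest to the threshold were ENSBTAG00000021307, at 1027 CPM and a ratio of 16.41, and ENSBTAG00000010508, with a ratio of 16.43. Just outside lay ENSBTAG00000051801, at 683.6 CPM with a ratio of 15.66, and ENSBTAG00000005364, at 465.9 CPM with a ratio of 14.62. By level, ENSBTAG00000014655 was the only Ensembl gene past the filter on low counts that met the fold and missed 100 CPM, at 76.3 CPM with a ratio of 36.3. The level threshold thus excluded 1 gene past the filter. With plain library totals in place of TMM the list held 20 genes, all of them among the 35.

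The filter on low counts mattered for the length of the list. Without it, 48 identifiers met the level and the fold, 36 of which had passed the filter (the 35 members and 1 more under the scaling of the unfiltered table) and 12 of which had not. The 12 measured 103.9 to 732.7 CPM in Droughtmaster replicate 3 with a median of 139.8 CPM, and held 0.12% of its counts. Over the other 17 libraries combined each had between 1 and 152 counts, and none had 0. The highest of them, ENSBTAG00000047331, had 5240 counts in that library and 152 in the other 17. These 12 are not among the 35, and a filter that asks for counts in several libraries removes genes of this kind by construction.

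Of the loci without an Ensembl identifier, 3 met the same level and fold, on ARS-UCD1.2 coordinates as deposited. The locus on chromosome 5 from 97074458 to 97100985 (minus strand) measured 232.8 CPM in Droughtmaster replicate 3 and 0.335 to 7.66 CPM elsewhere. A second locus on chromosome 5, from 74613111 to 74646392 (plus strand), measured 102.2 CPM against 1.25 to 5.68 CPM. The locus on chromosome 19, from 12782309 to 12788984 (plus strand), measured 120.0 CPM against 0 to 5.27 CPM. Whether these loci overlap annotated genes was not analysed here.

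No other library showed a comparable set. At 4 times every other library and at least 100 CPM, Droughtmaster replicate 3 had 89 Ensembl genes, and among the other 17 libraries the count was 0 to 9 with a median of 0. At 8 times it had 58 and the others 0 to 3. Droughtmaster replicate 2 was the highest of the others at these folds. At 100 times the count was 11 in Droughtmaster replicate 3 and 0 in each of the others. In the opposite direction, among genes of at least 10 CPM in every other library, 0 genes in Droughtmaster replicate 3 were below 0.5 times the lowest other library, against 0 to 15 in the others. With DESeq2's size factors these counts were 90 genes higher at 4 times and 0 lower. The direction rested on the scaling, however. With plain library totals 41 genes were higher at 4 times and 1964 were below 0.5 times the lowest other library, as the median gene outside the set then lay 1.35 lower on the log2 scale than the median of the other libraries, against 0.07 lower by TMM.

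**Figure D2:**
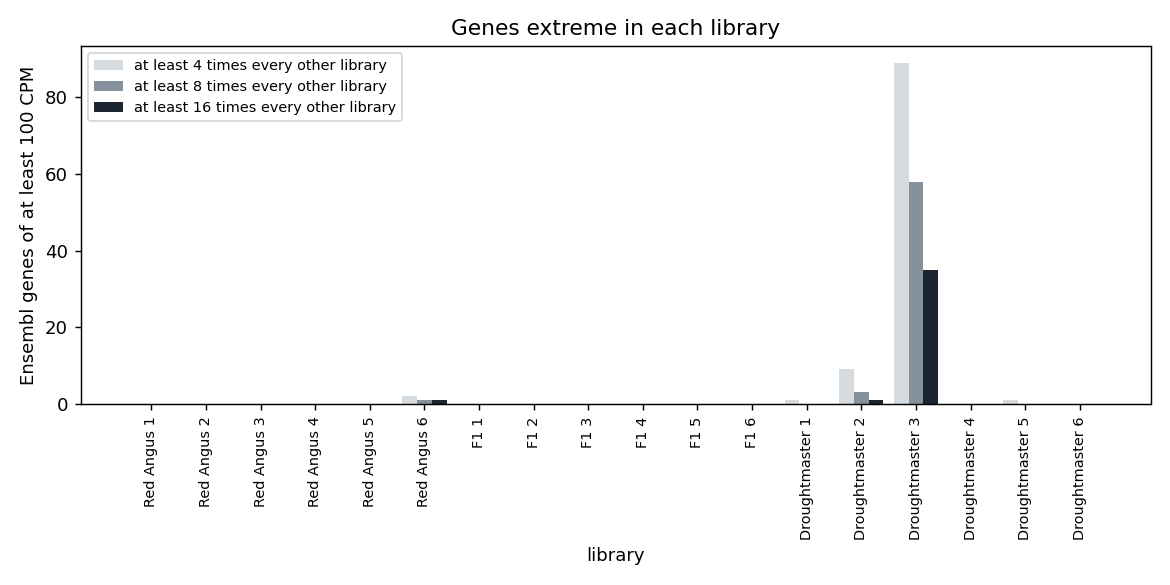
Number of Ensembl genes of at least 100 CPM whose CPM + 0.5 in a library was at least 4, 8 or 16 times that of every other library, for each of the 18 libraries. Droughtmaster replicate 3 had 89, 58 and 35 such genes, and Droughtmaster replicate 2, the next, had 9, 3 and 1.

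With Droughtmaster replicate 3 left out, no member passed the test between breeds. All 17 libraries entered an edgeR quasi-likelihood fit over 14446 features, with Benjamini-Hochberg adjustment over all of them. For 5 Droughtmaster against 6 Red Angus libraries, 0 of 35 members passed an adjusted p of 0.05, where 1.01% of all features passed. That count of features ran from 38 to 667 with each library left out in turn. DESeq2's Wald test also called 0 members, where it called 5.28% of the features it tested. By edgeR 2 members (5.71%) had an unadjusted p under 0.05, against 15.3% of all features. The members' log2 fold changes had a median of -0.17, against 0.03 over all features, and 14 members were higher and 21 lower in Droughtmaster.

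For F1 against Red Angus, 0 members passed by edgeR or by DESeq2, where 0.0% of all features passed by each. An unadjusted p under 0.05 by edgeR was seen for 2 members (5.71%) and for 3.11% of features. The median change of the members was -0.18, against 0.01 over all features. For F1 against Droughtmaster, 0 members passed by either tool, where 0.768% of features passed by edgeR and 3.03% by DESeq2. The edgeR share is 111 features, and it became 1 without F1 replicate 1 and 0 without F1 replicate 6. Here 3 members (8.57%) had an unadjusted p under 0.05 by edgeR, against 11.47% of features, and the median change was -0.23. The median standard error of a member's log2 fold change was 0.608 between Droughtmaster and Red Angus, against 0.406 over all features, so a 2-fold difference between breeds in a single member could be missed with these animals.

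The highest members show how wide these comparisons were. ENSBTAG00000037644 averaged 1312 ± 352 CPM in the 5 other Droughtmaster libraries (SD, n = 5). It averaged 1234 ± 1257 CPM over Red Angus and 1149 ± 1235 CPM over the F1 animals (SD, n = 6 each). Its log2 difference of Droughtmaster from Red Angus was 0.18 ± 0.78 (SE; edgeR adjusted p = 0.937). ENSBTAG00000051412 averaged 8.83 ± 8.07 CPM in the 5 Droughtmaster libraries, 29.3 ± 51.1 in Red Angus and 49.9 ± 59.8 in the F1, with a log2 difference of F1 from Droughtmaster of 2.45 ± 1.22 (edgeR adjusted p = 0.459). ENSBTAG00000013178 differed between Droughtmaster and Red Angus by 0.64 ± 0.80 on the log2 scale (edgeR adjusted p = 0.753). The SD of log2 CPM within breeds was 1.58, 2.38 and 1.75 for these genes in turn. It was larger than the difference given for ENSBTAG00000037644 and ENSBTAG00000013178, and close to that given for ENSBTAG00000051412.

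The smallest adjusted p in the 3 comparisons, chosen after the values were seen, belonged to ENSBTAG00000016413 in F1 against Droughtmaster. Its log2 fold change was -2.10 ± 0.77 (edgeR adjusted p = 0.258). Its level was 520 CPM in Droughtmaster replicate 3, 0.203 to 0.398 CPM in the F1 and 0.567 to 2.26 CPM in the 5 other Droughtmaster libraries, which is 3 to 10 counts in the F1 and 9 to 47 in those Droughtmaster libraries. It was the 1 member of 35 for which the F1 and these Droughtmaster libraries did not overlap, where 2.5% of all features did not. Red Angus overlapped with the F1 in each of the 35 members, where 0.0969% of all features did not, and with Droughtmaster likewise, where 2.09% did not.

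When all 18 libraries entered the fit, the contrast held the library that chose the genes. Droughtmaster against Red Angus then called 7 of 35 members, all higher in Droughtmaster, where 1.5% of all features were called higher. F1 against Droughtmaster called 3 members, all lower in the F1, where 0.879% of features were called lower. The members' median log2 change in Droughtmaster over Red Angus was 4.56 in this fit and their median standard error 1.29. These counts follow from the choice of the genes.

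Co-variation of the members was taken over the other 17 libraries, without the values of the library that chose them. The low-count filter and the TMM scaling behind it used all 18 libraries. Over the 595 pairs of members the Pearson correlation of log2 CPM had a median of 0.124, against 0.002 over all pairs of the 14446 features. Without Red Angus replicate 1 the members' median was 0.06. Pairs above 0.5 made up 15.3% of member pairs and 14.7% of all pairs. Within breeds, with each breed's mean removed, the median was 0.122 and the share above 0.5 was 17.8%, against 16.2% of all pairs. The share of strongly correlated pairs was thus near the background, and the 35 genes did not vary as 1 block in the other animals.

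Grouping by correlation placed most members in several smaller groups. Average linkage of the members on 1 minus r, stopped at a mean r of 0.5, gave 6 groups of 2 or more genes, which held 28 of the 35, and 7 single genes. These groups were made from the values they describe and have no test. How many such groups another set of 35 features would give was not computed. As the share of pairs above 0.5 was near the background, the grouping is not a trait shown to be particular to the members. All genes of a library share its depth and scaling, which can raise correlations among genes of similar level.

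The tightest group of more than 2 genes held 4 members, ENSBTAG00000051412, ENSBTAG00000054844, ENSBTAG00000038757 and ENSBTAG00000004824. Their pairwise correlations ran from 0.763 to 0.921 (n = 17 libraries), with a median of 0.838, and of 0.834 within breeds. All 4 were among their 4 highest values of the 17 in F1 replicate 3, Red Angus replicate 1, F1 replicate 2 and F1 replicate 5. In ENSBTAG00000054844 these libraries measured 27.6, 24.4, 8.83 and 7.37 CPM, and the other 13 measured at most 2.51 CPM. In ENSBTAG00000004824 they measured 4.76, 5.11, 2.97 and 3.18 CPM, and the others at most 1.65 CPM. The same 4 animals, from the F1 and Red Angus, thus held the high end of all 4 genes, and none of them was a Droughtmaster. The 4 genes measured 2070 to 166475 CPM in Droughtmaster replicate 3.

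A second group of 6 members included the highest one, ENSBTAG00000037644, with ENSBTAG00000013178, ENSBTAG00000016588, ENSBTAG00000010508, ENSBTAG00000002361 and ENSBTAG00000010882. Correlations ran from 0.247 to 0.833 with a median of 0.607 (n = 17). Red Angus replicate 4 was among the 4 highest libraries for all 6 genes. F1 replicate 1 and Red Angus replicate 5 were on average the lowest. In ENSBTAG00000002361, Red Angus replicate 4 measured 78.0 CPM and F1 replicate 1 measured 1.59 CPM. The leading library thus differed between the groups, Red Angus replicate 4 here and F1 replicate 3 in the previous one, while Red Angus replicate 1 was among the highest in both.

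The largest group held 10 members, among them ENSBTAG00000006342, ENSBTAG00000012403 and ENSBTAG00000048817. Correlations ran from 0.308 to 0.861 with a median of 0.617 (n = 17). Red Angus replicate 3 and F1 replicate 5 were each among the 4 highest libraries for 9 of the 10 genes. ENSBTAG00000048817 measured 9.04 CPM in Red Angus replicate 3, 8.74 in Red Angus replicate 1 and 5.95 in F1 replicate 5, 2.08 in Droughtmaster replicate 6, and no more than 0.814 CPM in the remaining 13. The lowest libraries of the group on average were F1 replicate 2 and Red Angus replicates 2 and 4. Fewer features had counts in these 3 than in any other library (15507, 15790 and 15855), and the part of that in the result was not tested.

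**Figure D3:**
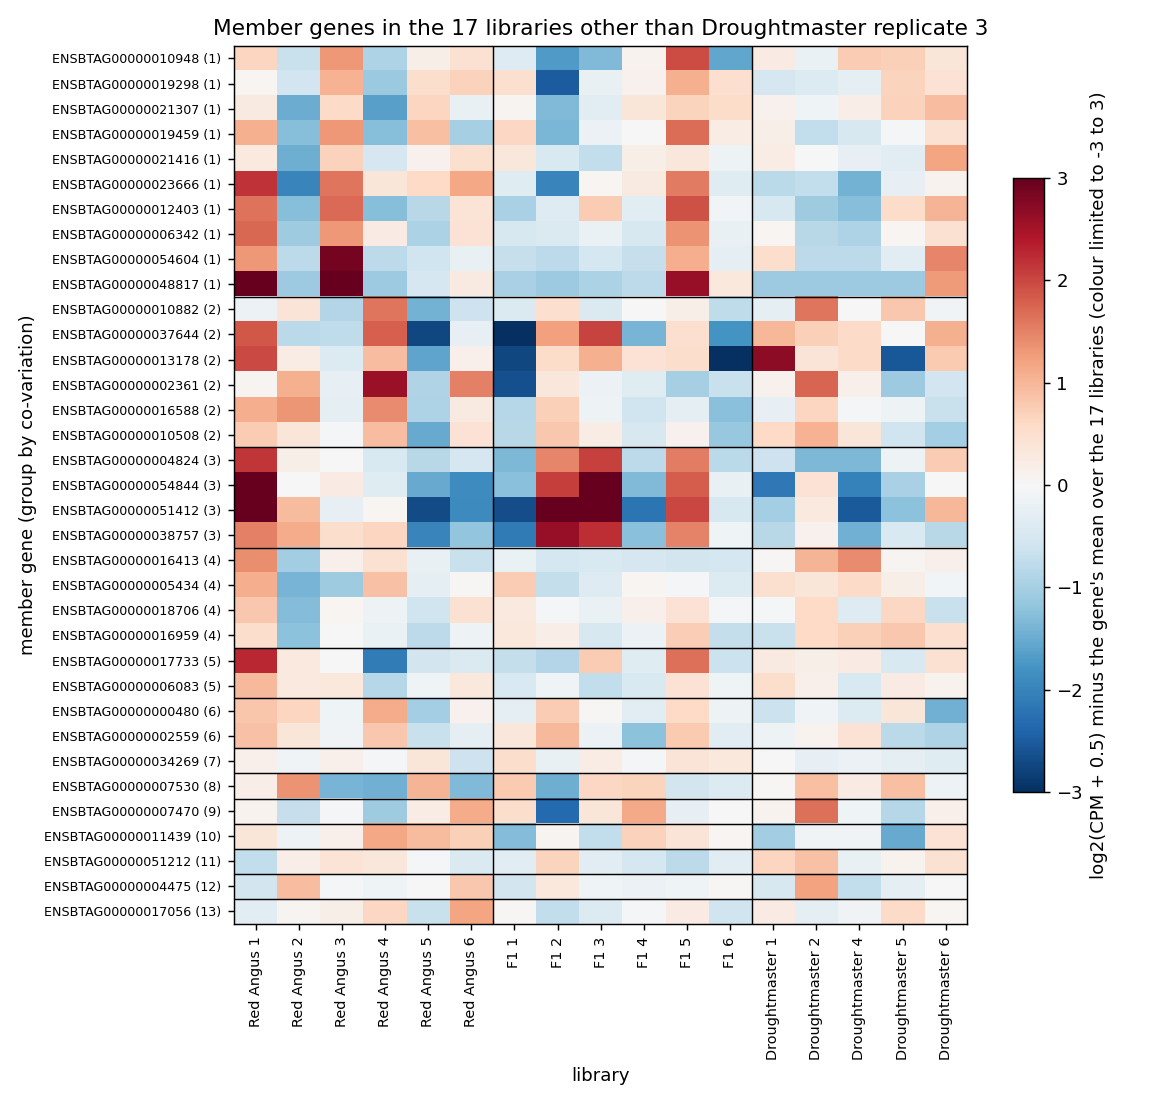
Level of the 35 members (rows, with their group by co-variation in brackets) in the 17 libraries other than Droughtmaster replicate 3 (columns, by breed), as log2(CPM + 0.5) minus each gene's mean over the 17, with colours limited to -3 to 3. Group 3 is high in Red Angus 1 and F1 2, 3 and 5, group 2 in Red Angus 4, and group 1 in Red Angus 3 and F1 5.

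The animals with the next highest values were spread over the breeds. The next highest library was a Red Angus for 16 members, an F1 for 10 and another Droughtmaster for 9. Red Angus replicate 1 was the next highest for 7 members and among the 3 highest for 20, the most of any library. F1 replicate 5 was among the 3 highest for 13 members and F1 replicate 6 for 0. The 9860 features outside the member set also lay slightly higher in Red Angus replicate 1 and F1 replicate 5. Their median log2 difference from the other libraries' median was 0.166 and 0.137, the 2 highest of the series. How far scaling shaped these ranks was not tested. In Red Angus replicate 1 the members other than the highest held 0.0827% of the remaining counts, against 20.55% in Droughtmaster replicate 3, so no other animal approached its level.

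The ratio between the 2 highest members changed between libraries. ENSBTAG00000037644 had 6.33 counts for each count of ENSBTAG00000051412 in Droughtmaster replicate 3. In the other 17 libraries the ratio ran from 17.7 (F1 replicate 2) through a median of 83.7 to 850.4 (Droughtmaster replicate 4). Gene lengths were not available, so the ratio says nothing of the relative abundance of the transcripts within a library, but the same lengths apply in each library. Both genes were chosen for their level in Droughtmaster replicate 3, so its ratio is a description.

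**Figure D4:**
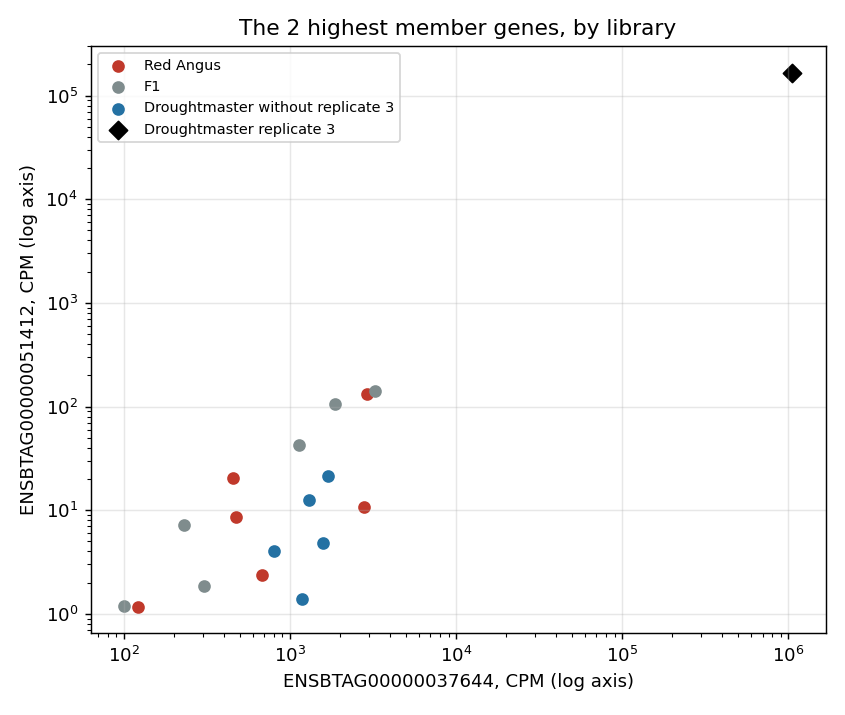
CPM of the 2 highest members in each of the 18 libraries, ENSBTAG00000037644 on the horizontal and ENSBTAG00000051412 on the vertical axis, both log axes, coloured by breed. The 17 other libraries lie between 99.9 and 3261 CPM on the first and between 1.17 and 141 CPM on the second, far from Droughtmaster replicate 3.

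The relation of each feature to the highest member was tested over the 17 libraries. Pearson and Spearman correlations of log2 CPM with ENSBTAG00000037644 were each given a two-sided permutation p from 100000 resamples, adjusted over all 14445 other features. By either measure 0 of the 34 other members passed an adjusted p of 0.05, where 0.0% of all features passed. With 100000 resamples the permutation p could not fall below 1e-05. A single feature at that floor could not pass on its own after adjustment over 14445 features. The members did not reach that floor in these tests. Their smallest permutation p was 0.00067 by Pearson's r and 4e-05 by Spearman's rho, both for ENSBTAG00000013178. Without adjustment, 8 of 34 members had p under 0.05 by Pearson's r and 8 by Spearman's rho, against 18.02% and 16.34% of all features. Members had a median r of 0.211 and 24 of 34 were positive, against a median of -0.068 and 45.1% positive over all features.

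Among the members, ENSBTAG00000013178 had the highest correlation with ENSBTAG00000037644 over the 17 libraries when breed means were kept, with r = 0.754 (permutation p = 0.00067, adjusted p = 0.257) and Spearman's rho = 0.855 (permutation p = 4e-05, adjusted p = 0.289). Without the 2 libraries farthest from the median of ENSBTAG00000037644, Red Angus replicate 5 and F1 replicate 1, r was 0.65 (permutation p = 0.00697). ENSBTAG00000010508 followed with r = 0.716 (permutation p = 0.00147, adjusted p = 0.257) and rho = 0.64 (permutation p = 0.00666), and r was 0.567 without those libraries. With each breed's mean removed, the order changed, and ENSBTAG00000051412 (r = 0.824) and ENSBTAG00000038757 (r = 0.813) came before ENSBTAG00000013178 (r = 0.754). ENSBTAG00000019298 and ENSBTAG00000034269 had the lowest values, r = -0.431 (permutation p = 0.0807) and r = -0.405 (permutation p = 0.108). Their Spearman values were -0.498 (permutation p = 0.0439) and -0.326 (permutation p = 0.203), and without the 2 farthest libraries r was -0.409 and -0.041. ENSBTAG00000034269 hardly varied, from 6.84 to 15.6 CPM over the 17 libraries, and yet measured 396 CPM in Droughtmaster replicate 3.

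**Figure D5:**
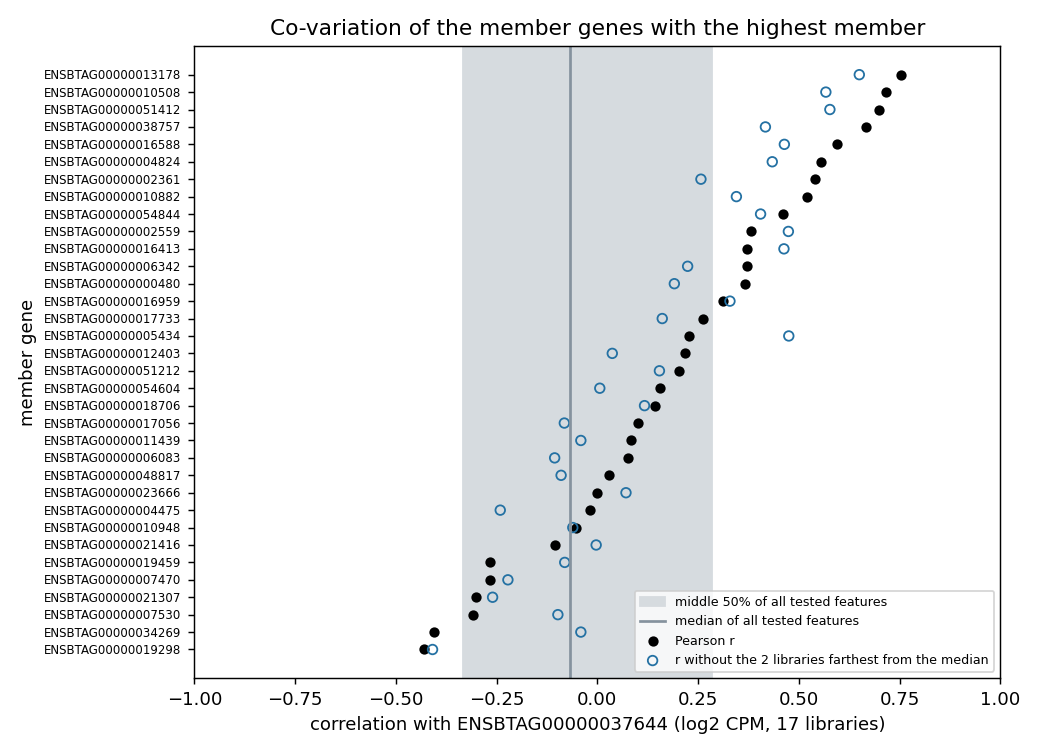
Pearson correlation of each of the 34 other members with ENSBTAG00000037644 over the 17 libraries (black), and without the 2 libraries farthest from its median (open blue). The grey band is the middle 50% of all tested features, from -0.333 to 0.285, and the members run from -0.431 to 0.754.

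Outside the member set, the 4 features with a mean of at least 5 CPM whose pattern was most like that of ENSBTAG00000037644 over the 17 libraries were ENSBTAG00000017407 (r = 0.79), ENSBTAG00000010964 (r = 0.761), ENSBTAG00000015798 (r = 0.757) and ENSBTAG00000026657 (r = 0.754). Their permutation p values were 0.00014, 0.00048, 0.00055 and 0.00064, their adjusted p 0.257 each, and their Spearman rho 0.745, 0.662, 0.691 and 0.591 (permutation p = 0.00093, 0.00492, 0.00286 and 0.0146). Without the 2 farthest libraries r was 0.626, 0.677, 0.664 and 0.665. In Droughtmaster replicate 3 they measured 19.9, 8.14, 27.5 and 10.4 CPM, inside the range of the other 17 libraries for each. These 4 were thus not raised in this library together with the highest member. This follows in part from the choice, since the genes most raised in this library had been set aside as members. Among all 14445 features the member ENSBTAG00000013178 ranked 5 by this correlation.

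The level of ENSBTAG00000037644 was also set beside 3 measures of the libraries, and none of these relations passed after adjustment. Over the 17 libraries its log2 CPM correlated with the total count at r = -0.414 (permutation p = 0.1; rho = -0.522, permutation p = 0.0331, adjusted p = 0.0818), with the number of features with counts at r = -0.445 (permutation p = 0.0742; rho = -0.48, permutation p = 0.0545) and with the TMM factor at r = -0.417 (permutation p = 0.0968; rho = -0.326, permutation p = 0.203). The adjusted p over these 3 relations was 0.1 for each r. Without the 2 farthest libraries r was -0.295, -0.282 and -0.214 (permutation p = 0.286, 0.31 and 0.447). The part of these in the correlations above was not tested.

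The members varied widely between animals of the same breed. The SD of log2 CPM within breeds over the 17 libraries had a median of 1.12 for the members and 0.675 for all features. Low genes vary more, so the members are also set beside features of their own level. The 18 members of 1 to 5 CPM had a median SD of 1.18 against 0.825 for features of that level, and the 7 members of 5 to 20 CPM had 0.683 against 0.653. The 5 members of 20 to 100 CPM had 0.831 against 0.539, and the 2 members above 100 CPM had 1.22 against 0.568. ENSBTAG00000048817 and ENSBTAG00000051412 had the widest spread, 2.43 and 2.38, above 99.9% and 99.8% of features. ENSBTAG00000034269 had the narrowest, 0.279, at the 3.7th percentile.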

How the data were processed

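Leukocyte mRNA libraries of 18 female cattle were sequenced on an Illumina NovaSeq, per the labels' protocols. HISAT2 2.0.5, featureCounts 1.5.0-p3, DESeq2 1.16.1 and the build ARS-UCD1.2 are listed in the submitters' processing notes. Annotation and strandedness are not given in the sources used here. The authors deposited raw counts per gene. Another deposited table gives the positions of unannotated loci.

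Counts were filtered with filterByExpr by breed (edgeR 4.0.16, R 4.3.3; minimum count 10 in about 6 libraries) and scaled by TMM. CPM use those scaled sizes. Log2 CPM use a prior count of 2. Counts were tested with edgeR's quasi-likelihood test, robust, two-sided, with 3 group means and without Droughtmaster replicate 3, which chose the members. DESeq2 1.42.0 was an alternative. Group means and SDs in CPM use the scaling of all 18 libraries. Standard errors were derived from F. The 17-library fits re-estimated the scaling. Correlations used numpy permutations. Tests were tried on simulated data.

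Members, lists and tests were chosen with earlier results of these data known. The listed rule named the members highest and lowest in level, ratio and correlation. Lists of cell type markers could not be used without gene names. The rule was applied to Ensembl identifiers, so the 3 unannotated loci that meet it are counted apart.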

Additional observations from a re-analysis of the deposited data

Results flagged for a closer look

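Among 48 groups of 5 or 6 libraries checked, Droughtmaster replicate 3 left out, 4 had a library whose gap to the nearest other exceeded Dixon's 95% critical value (0.625 for 6 libraries and 0.71 for 5, on log2 CPM). Chance gives such a gap in about 1 of 20 groups. ENSBTAG00000006342 measured 370.5 CPM in F1 replicate 5 and 104 to 127 CPM in the other F1 libraries (gap 0.839 of the range). ENSBTAG00000019298 measured 0.362 CPM in F1 replicate 2 and 3.66 to 9.73 CPM in the others (0.684). ENSBTAG00000017733 measured 1.79 CPM in Droughtmaster replicate 5 and 3.10 to 3.82 CPM in the other 4 (0.721). ENSBTAG00000016413 measured 0.398 CPM in F1 replicate 1 and 0.203 to 0.251 CPM in the others (0.706), values of a few counts.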

How the results depend on the processing

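The count of 35 members became 20 with plain library totals, 58 at a fold of 8 and 23 at a fold of 32. The 20 and the 23 were all among the 35, and the 58 held all 35. Under the other settings of scaling, level, offset and filter it stayed within 1.5 times, and without each other library in turn it was 35 to 36. The members called stayed at 0 in each of the 3 comparisons under each alternative run, including DESeq2, only the libraries of the groups compared, each library left out and the 3 libraries with the fewest features set aside. The last setting was chosen after seeing the data, as was taking library totals before the filter, which gave 35 members. Members correlated with ENSBTAG00000037644 also stayed at 0 under each alternative. The number of resamples can limit that count where a member lies at the smallest p they allow. With breed means removed, ENSBTAG00000013178 lay at that smallest p (permutation within breeds, p = 1e-05, adjusted p = 0.0722).

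The count over all features moved. For Droughtmaster without replicate 3 against Red Angus it was 146. It was 2 with the threshold at 0.01, 3 in a fit of the compared groups alone, 761 by DESeq2 and 20 without the 3 libraries with the fewest features. For F1 against Droughtmaster it was 111, and 0 with the threshold at 0.01 (edgeR; 1657 features had an unadjusted p under 0.05) and 437 by DESeq2. With each library left out these counts ran from 38 to 667 and from 0 to 148. The cause was not tested. The first moved by more than 1.5 times without Red Angus replicates 1 (61), 3 (41), 4 (77) and 5 (667), F1 replicate 3 (91) and Droughtmaster replicates 2 (53) and 6 (38). The second did so without F1 replicates 1 (1), 2 (36), 3 (35), 4 (46), 5 (43) and 6 (0) and Droughtmaster replicates 2 (29) and 6 (15). For F1 against Red Angus the count was 0 in each alternative run. The median pairwise correlation of the members ran from 0.06 (without Red Angus replicate 1) to 0.139 with each library left out. No paired analysis was possible because the labels do not link samples of different breeds. Breed differences rest on 5 or 6 samples a group, and members of a few counts are limited by depth.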
